A study of Mus musculus with 6 samples.

Results

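The FGF and HGF paracrine growth signals of the mammary stroma were taken as 10 genes, found by symbol among the 23337 genes listed in each count table: the ligands Fgf2, Fgf7, Fgf9, Fgf10 and Hgf, the receptors Fgfr1, Fgfr2 and Met, and the feedback inhibitors Spry2 and Spry4. All 10 were listed, and all 10 passed the low-count filter that left 13442 genes for testing. They were measured by RNA sequencing in 3 Sharpin-cpdm and 3 wild-type cultures of mammary gland stromal fibroblasts, isolated from C57BL/KaLawRij mice aged 7 weeks. The Sharpin-cpdm animals were cpdm/cpdm, which is labelled Sharpin deficient, and the wild-type animals were wt/wt. Every culture came from the pooled glands of 3 mice and was grown at passage p0 in medium with serum until confluent, so the cells were measured after growth in vitro and without intact ducts beside them. SHARPIN is a subunit of the complex that assembles linear ubiquitin chains, and the title of the series names its role in ductal invasion. The comparison asks whether transcripts of signals between stroma and ducts differ between the genotypes.

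Most fibroblast growth factors are secreted proteins that bind heparan sulphate and activate FGF receptors, which are receptor tyrosine kinases. FGF7 and FGF10 are made by mesenchymal cells and act on the epithelial splice form of FGFR2, and HGF is made by mesenchymal cells as an inactive precursor that, once cleaved, activates MET on epithelial cells. In the mammary gland these factors are known for driving the growth and branching of ducts. Sprouty proteins are induced by receptor tyrosine kinase signalling and dampen it. The count tables hold 1 row per gene, so splice forms of the receptors were not told apart.

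When libraries of the same replicate number were compared with each other, Fgf7 was the 1 gene of the 10 that passed, and it fell in Sharpin-cpdm cultures. Without that pairing, which was the fit set as the main one, 0 of the 10 passed, as did 0 of all 13442 tested genes. Fgf10, which acts on the same receptor form, was also lower in every such pair but did not pass. The promoters of both genes are shown because these 2 ligands were the lowest relative to wild type once Fgf9, which had few counts, is set aside. The sequences are those of RefSeq on GRCm38.p6 (the mm10 build), from 250 bases before to 50 bases after the start site, on the plus strand of chr2:126034408-126034707 for Fgf7 and of chr13:118714449-118714748 for Fgf10. Capitals mark matches to the searched motifs.
Fgf7: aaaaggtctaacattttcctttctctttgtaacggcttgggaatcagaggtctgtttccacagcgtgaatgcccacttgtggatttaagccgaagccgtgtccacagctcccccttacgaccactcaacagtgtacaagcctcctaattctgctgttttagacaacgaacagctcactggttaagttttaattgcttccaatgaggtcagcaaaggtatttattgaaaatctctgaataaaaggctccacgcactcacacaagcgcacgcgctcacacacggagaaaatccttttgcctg
Fgf10: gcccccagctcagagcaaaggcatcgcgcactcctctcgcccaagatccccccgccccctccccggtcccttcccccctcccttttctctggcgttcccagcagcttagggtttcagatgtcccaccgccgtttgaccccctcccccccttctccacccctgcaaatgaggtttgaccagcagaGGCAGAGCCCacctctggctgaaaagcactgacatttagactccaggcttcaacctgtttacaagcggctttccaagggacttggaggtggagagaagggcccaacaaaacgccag

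Both strands were searched for the TATA box, spelled TATAAA, for the AP-1 motif TGANTCA, in which N is any base, and for the ETS core CCGGAA. The fourth search was for a loose NF-kappaB motif, in which GGG is followed by 5 bases of any kind and then by CC. The Fgf7 window held 0 matches. The Fgf10 window held 1 match, to the NF-kappaB letters on the minus strand, which begins 66 bases before the start site. Of 32817 promoter windows of the same length, 13.6% held TATAAA, 7.81% TGANTCA, 14.9% CCGGAA and 50.8% the NF-kappaB letters, so the kind of match in the Fgf10 window is common. The windows differed in composition, with 45.7% G or C and 11 CpG in that of Fgf7, and 60.7% and 10 in that of Fgf10.

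Sharpin itself was lower in every Sharpin-cpdm library, at 10.3, 9.42 and 9.25 CPM in the Sharpin-cpdm cultures 1 to 3, against 24.2, 25.8 and 31.3 CPM in the wild-type cultures 1 to 3. For Sharpin, edgeR's adjusted p was 0.00595 with libraries paired by number and 0.272 without pairing. Without pairing it was 1.3e-12 in DESeq2 and 0.487 in limma-voom. CPM are gene counts scaled to a common library size, with TMM factors between libraries. Depth lay between 13570649 and 14940100 gene counts in Sharpin-cpdm libraries and between 13642440 and 15656196 in wild-type libraries. All 18 listed fibroblast markers passed the filter, and they summed to between 92621 and 101573 CPM in Sharpin-cpdm and between 91275 and 109561 CPM in wild type. The labels number the cultures 1 to 3 in each genotype without saying what a number marks. Deviations from the group means correlated at 0.457, 0.809 and 0.737 across genes for the same-numbered libraries 1, 2 and 3, so these were taken as pairs, which is a reading of the data and not of the labels. The test without pairing is edgeR's quasi-likelihood test of genotype, and the paired one adds the replicate number as a block; both have Benjamini-Hochberg adjustment over all 13442 genes and a threshold of 0.05. "Rose" and "fell" are used only of genes past that threshold with the block. In simulated counts the share of calls with the block that were false was above 0.05, so the adjusted p with the block was not held to that level there.

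The levels of the 10 genes per length of exon spanned from Fgfr1 at the top to Fgf9 at the bottom, and the order was nearly the same in all libraries. Fgfr1 had 58.4 ± 11.4 CPM per kb in Sharpin-cpdm and 61.5 ± 13.2 CPM per kb in wild type (mean ± SD, n = 3 each). Fgf7 came next by mean level, at 14.8 to 31.1 CPM per kb over the 6 libraries, with Spry2 at 11.3 to 26.1 CPM per kb. These neighbours overlapped, and Spry2 stood above Fgf7 in both libraries numbered 1. Per kb of the longest transcript that order turned, with Fgf7 at 20.3 and Spry2 at 18.5 in Sharpin-cpdm library 1. In wild-type library 1 they were then at 23.3 and 20.2. Hgf had 3.36 to 4.46 CPM per kb and Spry4 had 2.78 to 4.05 CPM per kb, and Hgf was the higher of the pair in every library. Fgf10 (0.731 to 3.81 CPM per kb), Met (1.61 to 2.63 CPM per kb) and Fgf2 (0.865 to 2.04 CPM per kb) overlapped one another. Fgfr2 had 0.327 to 1.03 CPM per kb, and Fgf9 had 0.0468 to 0.227 CPM per kb, the lowest level in each library. Per length, the ratio of Fgfr1 to Fgfr2 was 164, 44.7 and 143 in Sharpin-cpdm libraries 1 to 3 and 169, 57.1 and 228 in wild-type libraries 1 to 3. The exon length used for Fgfr2 is that of a GENCODE model reaching to 133123350 on chromosome 7. That lies far beyond the RefSeq end at 130266808, and exons of the model overlap those of Ctbp2, so the level and ratios of Fgfr2 depend on that model.

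**Figure D1:**
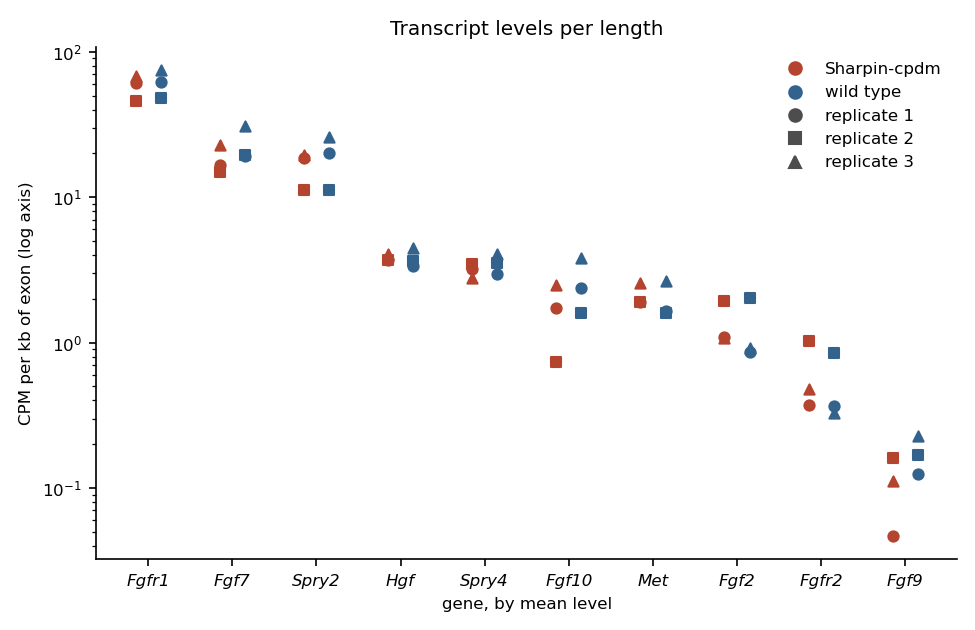
Level of each gene in CPM per kb of annotated exon (log axis), with Sharpin-cpdm libraries in red and wild-type libraries in blue to their right, and a marker shape for each replicate number. Fgfr1 lies between 46.0 and 74.6 CPM per kb in all 6 libraries and Fgf9 at or below 0.227.

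Fgf7, also called keratinocyte growth factor, was lower in each Sharpin-cpdm library than in the wild-type library of the same number. Fgf7 (chromosome 2, 126034658 to 126091185, plus strand, RefSeq GRCm38.p6) had 54.2, 48.1 and 73.7 CPM in the Sharpin-cpdm cultures 1 to 3, against 62.4, 63.4 and 100.9 CPM in the wild-type cultures 1 to 3. The groups overlapped, because Sharpin-cpdm library 3 stood above wild-type libraries 1 and 2, and libraries 3 were the highest of both genotypes. Within the pairs, Sharpin-cpdm reached 0.869, 0.758 and 0.730 of the wild-type level. With the block, Fgf7 fell by 0.36 ± 0.06 on the log2 scale (SE, n = 3 per group; 95% interval -0.50 to -0.21, adjusted p 0.0442, edgeR quasi-likelihood F-test). Without the block, its log2 fold change was -0.36 ± 0.24 (95% interval -0.95 to 0.22, edgeR adjusted p 1.00). The call also depended on the pairs and the tool: with the block, the adjusted p was 0.00723 without pair 1, 0.176 without pair 2 and 0.218 without pair 3 in edgeR's test, and 0.0766 with all pairs in DESeq2. Without wild-type library 3 and without the block, the log2 fold change was -0.10. Fam227b, whose annotated span covers Fgf7 on the opposite strand, had at most 0.0705 CPM in any library under its older symbol 4930525F21Rik. Endothelial markers, whose values are given with the other cell markers, fell as well; these are bulk cultures, in which fewer cells of a type and less RNA per cell cannot be told apart.

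Fgf10, the ligand whose loss in mouse embryos prevents most mammary buds from forming, had the largest difference among the members other than Fgf9. Fgf10 (chromosome 13, 118714699 to 118792573, plus strand) had 7.91, 3.37 and 11.5 CPM in the Sharpin-cpdm cultures 1 to 3, against 10.9, 7.37 and 17.5 CPM in the wild-type cultures 1 to 3, from 45 to 177 counts and 113 to 249 counts. Libraries 2 were the lowest and libraries 3 the highest of both genotypes, and the groups overlapped. Sharpin-cpdm reached 0.728, 0.456 and 0.657 of the wild-type level within the pairs. With the block, its log2 fold change was -0.68 ± 0.15 (95% interval -1.04 to -0.33, edgeR adjusted p 0.0807), and without the block it was -0.64 ± 0.49 (edgeR adjusted p 1.00). The adjusted p with the block was 0.0397 without pair 1, 0.200 without pair 2, 0.305 without pair 3 and 0.0471 without the low-count filter. Without the block, leaving out wild-type library 3 gave a log2 fold change of -0.26 and leaving out Sharpin-cpdm library 2 gave -0.29. The per-length ratio of Fgf7 to Fgf10 was 9.71, 20.2 and 9.06 in Sharpin-cpdm libraries 1 to 3 and 8.13, 12.2 and 8.15 in wild-type libraries 1 to 3, with libraries 2 the highest of both genotypes.

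Fgf2 and Fgf9 did not pass in either fit. Fgf2, basic fibroblast growth factor (chromosome 3, 37348477 to 37410106, plus strand), had 7.40, 13.0 and 7.29 CPM in the Sharpin-cpdm cultures 1 to 3, against 5.87, 13.8 and 6.20 CPM in the wild-type cultures 1 to 3. Libraries 2 stood well above the others in both genotypes, and the genotypes overlapped. Its log2 fold change with the block was 0.13 ± 0.13 (95% interval -0.19 to 0.45, edgeR adjusted p 0.662). Exons of Nudt6 overlap those of Fgf2 on the opposite strand, and Nudt6 had 14.7, 23.3 and 12.6 CPM in the Sharpin-cpdm cultures 1 to 3, against 12.8, 21.3 and 14.1 CPM in the wild-type cultures 1 to 3. The library kit does not mark strand, so reads from the shared stretch cannot be assigned to either gene. Fgf9, which signals between epithelium and mesenchyme in several organs (chromosome 14, 58070671 to 58112854, plus strand), had 3, 10 and 8 counts in Sharpin-cpdm libraries 1 to 3 and 8, 12 and 15 counts in wild-type libraries 1 to 3. It was lower in each pair, but its log2 fold change of -0.71 had a 95% interval from -1.67 to 0.25 with the block (edgeR adjusted p 0.428), so that no difference was detectable at this depth.

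Hgf, the ligand of MET, had the log2 fold change nearest to 0 among the 5 ligands. Hgf (chromosome 5, 16553495 to 16619439, plus strand) had 26.4, 26.5 and 29.2 CPM in the Sharpin-cpdm cultures 1 to 3, against 24.1, 26.2 and 32.1 CPM in the wild-type cultures 1 to 3, and the Sharpin-cpdm values lay inside the wild-type range. The log2 fold change with the block was 0.00 ± 0.08, with a 95% interval from -0.18 to 0.18 (edgeR adjusted p 0.996). Its sign turned with the settings, and without wild-type library 3 and without the block it was 0.12.

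**Figure D2:**
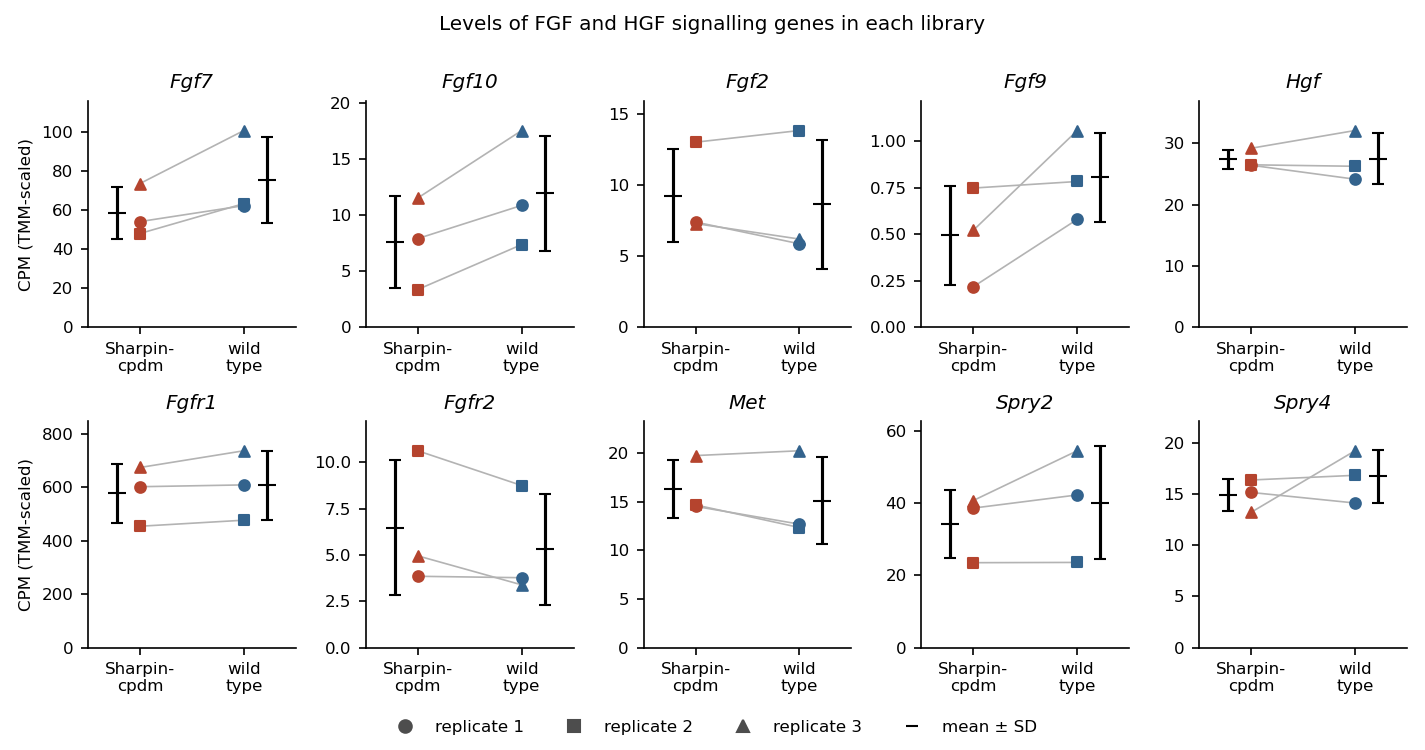
CPM (TMM-scaled) of each gene in every library, with Sharpin-cpdm on the left and wild type on the right of each panel; marker shapes give the replicate number, grey lines join same-numbered libraries and black bars are the mean ± SD of 3 libraries. The lines of Fgf7, Fgf10, Fgf9, Fgfr1 and Spry2 are higher at the wild-type end in all 3 pairs. They are hardly so for Spry2 in pair 2 (0.997 of the wild-type level), Fgfr1 in pair 1 (0.989) and Fgf9 in pair 2 (0.955). The groups overlap for all 10 genes.

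The receptors did not pass in either fit. Fgfr1, a receptor for FGF2 that mesenchymal cells express (chromosome 8, 25518759 to 25575718, plus strand), had 602, 454 and 674 CPM in the Sharpin-cpdm cultures 1 to 3, against 609, 477 and 737 CPM in the wild-type cultures 1 to 3. Its log2 fold change with the block was -0.07 ± 0.04 (95% interval -0.18 to 0.03, edgeR adjusted p 0.467), and with offsets for GC content and length it was -0.01. Fgfr2 (chromosome 7, 130162451 to 130266808, minus strand) had 3.84, 10.6 and 4.95 CPM in the Sharpin-cpdm cultures 1 to 3, against 3.77, 8.74 and 3.38 CPM in the wild-type cultures 1 to 3. It was the 1 gene of the 10 with a higher value in Sharpin-cpdm in all 3 pairs, with libraries 2 far above the others in both genotypes. The log2 fold change of Fgfr2 with the block was 0.29 ± 0.15 (95% interval -0.08 to 0.66, edgeR adjusted p 0.404), and without Sharpin-cpdm library 2 and without the block it was -0.27. Met, the HGF receptor (chromosome 6, 17463349 to 17573980, plus strand), had 14.5, 14.7 and 19.7 CPM in the Sharpin-cpdm cultures 1 to 3, against 12.7, 12.3 and 20.2 CPM in the wild-type cultures 1 to 3, with a log2 fold change of 0.13 ± 0.10 with the block (95% interval -0.11 to 0.36, edgeR adjusted p 0.565). Libraries 3 had the highest Met of both genotypes, and likewise the highest Hgf.

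Met and Fgfr2 are also expressed by epithelial cells, and markers of mammary epithelium were detected in every library. The 20 listed markers summed to 567, 485 and 245 CPM in the Sharpin-cpdm cultures 1 to 3, against 398, 754 and 476 CPM in the wild-type cultures 1 to 3, and Epcam had 16.9 to 35.7 CPM in the Sharpin-cpdm group, against 26.1 to 57.9 CPM in the wild-type group. The milk protein genes Csn2 and Wap were at 0 in all libraries. Of the 15 tested markers 0 passed the edgeR test with the block (1 lower and 0 higher at an unadjusted p under 0.05; 0 in DESeq2 and 0 in limma-voom), with Krt5 at a log2 fold change of -0.85 and Cldn7 at -0.39 and a median of -0.36. That count depended on the pairs, since 10 of the 15 were called lower without pair 1 and 0 without pair 2 or pair 3. The calls over all tested genes moved as well, with 533 lower without pair 1, 119 without pair 2 and 41 without pair 3. Krt5 had -1.41 without pair 1 (edgeR adjusted p 0.00770) and -0.49 without pair 2 (0.667). The part of epithelial cells in the levels of Met and Fgfr2 was not tested.

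The Sprouty genes did not pass in either fit. Spry2 (chromosome 14, 105891947 to 105896819, minus strand) had 38.6, 23.5 and 40.7 CPM in the Sharpin-cpdm cultures 1 to 3, against 42.2, 23.6 and 54.5 CPM in the wild-type cultures 1 to 3. Libraries 2 were the lowest of both genotypes, and in that pair the genotypes were within 0.01 of each other on the log2 scale. The log2 fold change of Spry2 with the block was -0.20 ± 0.09 (95% interval -0.41 to 0.01, edgeR adjusted p 0.314). Spry4 (chromosome 18, 38586247 to 38601347, minus strand) had 15.2, 16.4 and 13.2 CPM in the Sharpin-cpdm cultures 1 to 3, against 14.1, 16.8 and 19.2 CPM in the wild-type cultures 1 to 3. Its log2 fold change was -0.16 ± 0.14 with the block (95% interval -0.49 to 0.17, edgeR adjusted p 0.598), and its pairs differed, with Sharpin-cpdm at 1.07, 0.973 and 0.687 of the wild-type level.

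Counted over the 10 genes, 1 fell (Fgf7) and 0 rose with the block in edgeR's test, where 2.11% of all 13442 tested genes fell and 0.394% rose, 2.51% in all. With the block and no adjustment, at p under 0.05, 2 were lower (Fgf7 and Fgf10) and 0 higher, against 9.82% and 7.48% of all tested genes. Over all genes, 284 of 337 calls with the block were lower (84.3%), and 297 of 458 (64.8%) with offsets for GC content and gene length, with which Fgf7 had -0.35 and Fgf10 -0.66 (edgeR adjusted p 0.0191 for Fgf7 and 0.0627 for Fgf10). Without the block, 0 of the 10 passed, as did 0 of all genes (0%), and 0 of the 10 had an unadjusted p under 0.05 against 2.28% of all genes; DESeq2 and limma-voom without the block also called 0 of the 10. The direction was lower in all 3 pairs for 5 of the 10 (Fgf7, Fgf9, Fgf10, Fgfr1 and Spry2), against 20.3% of all tested genes, and higher in all 3 pairs for Fgfr2, against 20.8%. Some of these pairs differed by little. Sharpin-cpdm reached 0.989 of the wild-type level for Fgfr1 and 1.02 for Fgfr2 in pair 1, and 0.955 for Fgf9 and 0.997 for Spry2 in pair 2. The groups overlapped for all 10, while they did not overlap for 5.91% of all tested genes (3.3% lower and 2.61% higher in Sharpin-cpdm). The median log2 fold change with the block was -0.12 over the 10 and 0.00 over all tested genes. The genes were chosen with earlier results of these data known, so these counts describe them and do not set them apart from other genes.

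**Figure D3:**
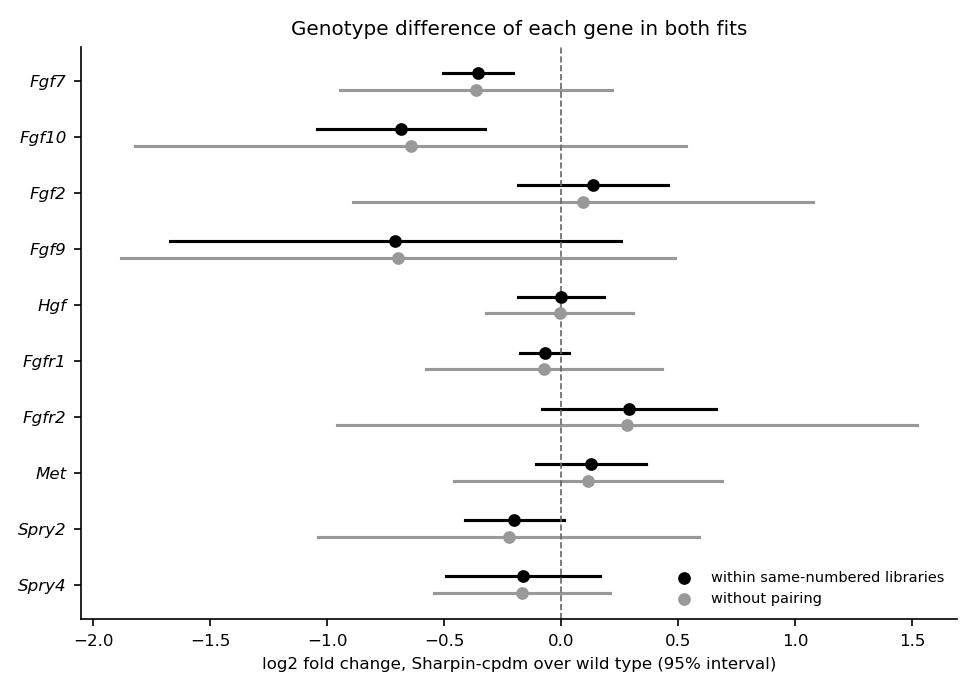
Log2 fold change of Sharpin-cpdm over wild type for each gene, with 95% intervals, in edgeR's fit with the replicate number as a block (black) and without it (grey). With the block the intervals of Fgf7 (-0.50 to -0.21) and Fgf10 (-1.04 to -0.33) lie below 0, and without it all 10 intervals include 0.

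For each of these genes the means of the 3 pairs ranged over more than the log2 fold change between genotypes with the block. That range was 1.48 on the log2 scale for Fgf10, 1.31 for Fgfr2, 1.01 for Fgf2 and 1.00 for Spry2, 0.84 for Fgf9, 0.64 for Fgf7, 0.60 for Fgfr1, 0.57 for Met, 0.28 for Hgf and 0.18 for Spry4. Both libraries numbered 2 had the highest Fgf2 and Fgfr2 of their genotype and the lowest Fgf10, Fgfr1 and Spry2. Both libraries numbered 3 had the highest Fgf7, Fgf10, Fgfr1, Hgf, Met and Spry2 of their genotype. What the numbers stand for is not given in the sources used here.

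Among the genes related to FGF and HGF signalling, Flrt3 and Dusp4 rose with the block; without it 0 genes of any list passed, as 0 of all genes did. The lists were chosen with earlier results known, and their medians stand beside a median of 0.00 over all tested genes. Of 10 other FGF receptors, co-receptors and binding proteins, 7 were tested, Flrt3 rose and 0 fell, with a median of -0.12. Flrt3, a membrane protein that binds FGF receptors and guidance receptors, had 12.6, 14.7 and 16.0 CPM in the Sharpin-cpdm cultures 1 to 3, against 7.75, 9.85 and 10.3 CPM in the wild-type cultures 1 to 3. The groups did not overlap, and Flrt3 had a log2 fold change of 0.64 ± 0.10 with the block (edgeR adjusted p 0.0299). The adjusted p of Flrt3 was 0.0638 in DESeq2, and leaving out pairs 1, 2 and 3 in turn gave 0.0325, 0.123 and 0.177 in edgeR. Of 14 feedback and ETS target genes, 13 were tested, Dusp4 rose and 0 fell, with a median of 0.02. Dusp4, a phosphatase that inactivates ERK and is induced by it, had 54.3, 60.5 and 31.1 CPM in the Sharpin-cpdm cultures 1 to 3, against 37.5, 45.9 and 25.6 CPM in the wild-type cultures 1 to 3. It was higher in each pair with overlapping groups, at a log2 fold change of 0.41 ± 0.07 with the block (edgeR adjusted p 0.0335). The adjusted p of Dusp4 was 0.0561 in DESeq2, and leaving out pairs 1, 2 and 3 in turn gave 0.0359, 0.148 and 0.0903 in edgeR.

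The other 4 signalling lists had 0 calls by edgeR with the block and all pairs. The list labelled other FGF ligands holds 18 genes taken by family name, and not all of their products are secreted ligands, Fgf11 among them. Of the 18, 8 were tested, with a median log2 fold change of -0.10 (2 lower and 0 higher at an unadjusted p under 0.05, and 0 in DESeq2 and limma-voom). The phosphate hormone gene Fgf23 had 0.514 ± 0.558 CPM in the Sharpin-cpdm group, against 1.62 ± 1.65 CPM in the wild-type group (edgeR adjusted p 0.0934), and Fgf11 had -0.84 with 0.248. Of 9 genes for HGF activation or its inhibition and the MET-related pair Mst1 and Mst1r, 7 were tested. All 7 had a log2 fold change below 0, with a median of -0.38 (2 lower and 0 higher at an unadjusted p under 0.05, and 0 in limma-voom). The list mixes activating proteases with the inhibitors Spint1 and Spint2 and the receptor gene Mst1r, so its median gives no direction of HGF activation. Over all 13442 tested genes, 6790 were below 0. Of the 7, 3 were lower in all 3 pairs, against 20.3% of all tested genes. In this list, Spint2, an inhibitor of HGF activation that epithelial cells express, had 21.5, 20.7 and 8.27 CPM in the Sharpin-cpdm cultures 1 to 3, against 16.9, 35.6 and 17.8 CPM in the wild-type cultures 1 to 3. That was the same order of libraries as the epithelial marker sums, but Spint1 and St14 of this list had other orders. Spint1 had 3.84 CPM in wild-type library 1 against 3.37 CPM in Sharpin-cpdm library 2. St14 was lowest in wild-type library 1 (4.64 CPM) and had 4.95 CPM in Sharpin-cpdm library 3. The median of the epithelial markers was -0.36, and their part in the values of this list was not tested. Plau, a protease (urokinase) that can cleave the HGF precursor, had 129.8 ± 2.19 CPM in the Sharpin-cpdm group, against 172 ± 31.0 CPM in the wild-type group, with a log2 fold change of -0.40 ± 0.10 with the block (edgeR adjusted p 0.109); it was the 1 gene of this list that DESeq2 called, with an adjusted p of 0.0384. In edgeR, Plau passed without pair 1 (-0.53, adjusted p 0.00672), as did 2 genes of the list in all, and had -0.26 without pair 3 (0.318). Without pair 1, 533 of all tested genes were called lower. Plat, the tissue-type activator, had -0.17 (edgeR adjusted p 0.151). The orders of Plau and Plat also differed from that of the sums, with Plau highest in wild-type library 3 (206 CPM) and Plat in wild-type library 1 (266 CPM).

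Heparan sulphate is needed by FGFs to bind their receptors. Of 19 genes for heparan sulphate synthesis and editing 17 were tested, with a median of 0.07 (2 lower and 4 higher at an unadjusted p under 0.05; 0 in DESeq2). The sulphotransferase gene Hs2st1 had a log2 fold change of 0.22 ± 0.04 with the block (edgeR adjusted p 0.0582), and was the 1 gene of the list that limma-voom called. Hs6st1, another sulphotransferase gene, had 0.26 ± 0.06 with 0.0742, and both passed in edgeR with offsets for GC content and length (adjusted p 0.0303 for Hs2st1 and 0.0325 for Hs6st1) and without the low-count filter (0.0485 for Hs2st1 and 0.0456 for Hs6st1). Neither passed in edgeR with the block when pairs 1, 2 and 3 were left out in turn. The adjusted p was 0.0752, 0.216 and 0.247 for Hs2st1, and 0.0938, 0.102 and 0.317 for Hs6st1. Of 21 adaptors and genes of the RAS to ERK relay 20 were tested, with Braf at -0.14 and a median of 0.00 (1 lower and 0 higher at an unadjusted p under 0.05; 0 in DESeq2 and limma-voom).

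**Figure D4:**
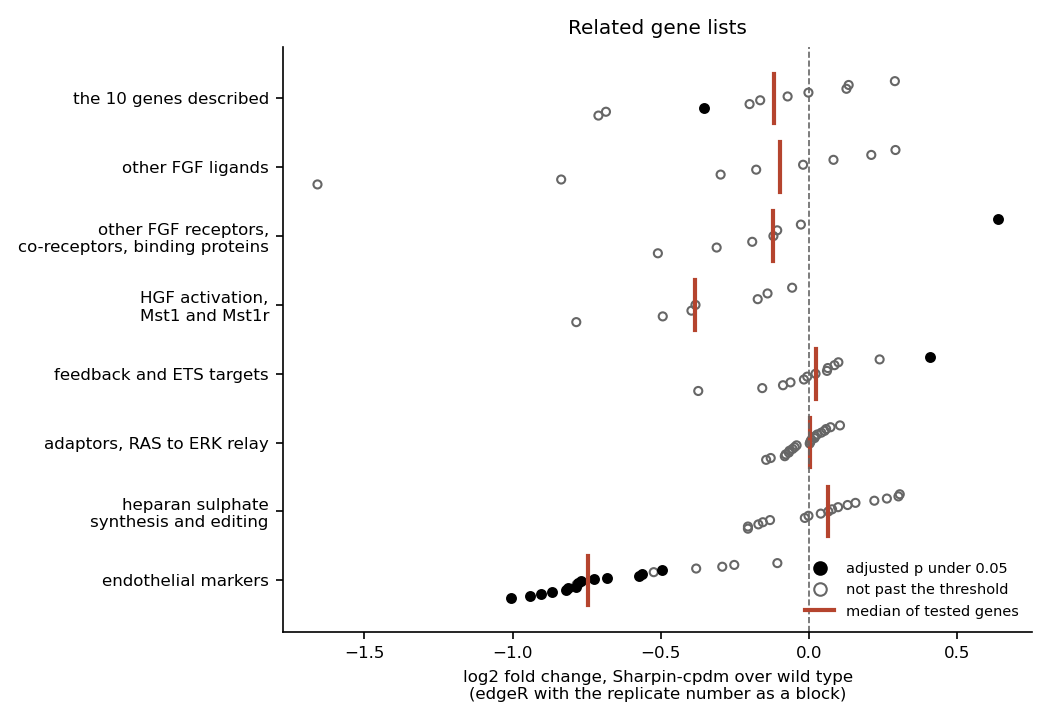
Log2 fold change of Sharpin-cpdm over wild type in edgeR's fit with the replicate number as a block for every tested gene of each list, filled where the adjusted p was under 0.05, with the median of each list as a red bar. The medians are -0.12 for the 10 genes and -0.75 for the endothelial markers. The median is -0.38 for the list labelled HGF activation, which mixes activators, inhibitors and Mst1r. Flrt3 and Dusp4 are the filled points to the right of 0.

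Most endothelial markers and some mural markers fell with the block. Of 20 endothelial markers 14 fell and 0 rose, with a median log2 fold change of -0.75 and none at 0 counts; they summed to 599, 787 and 874 CPM in the Sharpin-cpdm cultures 1 to 3, against 792, 1355 and 1410 CPM in the wild-type cultures 1 to 3. The 4 with the smallest p were Tek, Cldn5, Pecam1 and Flt1, between -1.01 and -0.72. Without the block, 0 of the 20 passed in edgeR (10 at an unadjusted p under 0.05; 0 in DESeq2 and limma-voom). With the block, 15 endothelial markers fell without pair 1, 8 without pair 2 and 1 without pair 3. Over all tested genes, 284 fell with all pairs, 533 without pair 1, 119 without pair 2 and 41 without pair 3. These totals also stand beside the counts for the mural markers below. Of 9 tested pericyte and mural markers 3 fell (Abcc9 at -0.59, Notch3 at -0.45 and Mcam at -0.43) and 0 rose, with sums of 789 to 1093 CPM in the Sharpin-cpdm group, against 972 to 1243 CPM in the wild-type group. Without pair 1 the count was 7 (of 10 tested), without pair 2 it was 1 (Notch3), and without pair 3 it was 0. Of 18 fibroblast markers 3 fell (Lum at -0.71, Fap at -0.35 and Dcn at -0.90; 6 calls in DESeq2) and 0 rose, with a median of -0.08 (9 lower and 3 higher at an unadjusted p under 0.05). Lum passed in edgeR without each pair in turn, while Fap was lost without pair 2 (adjusted p 0.0719) and pair 3 (0.140), and Dcn without pair 2 (0.102). Without wild-type library 3 and without the block, Dcn had -0.25 and Lum -0.26. Of 6 tested adipocyte markers Fabp4, which endothelial cells also express, fell by 0.93 on the log2 scale and 0 rose, with sums of 65.4 to 87.6 CPM in the Sharpin-cpdm group, against 90.9 to 137 CPM in the wild-type group, and Lep was at 0 in every library. Of 13 tested macrophage and myeloid markers 0 passed the edgeR test with the block (1 lower and 0 higher at an unadjusted p under 0.05; 0 in DESeq2 and limma-voom), with Cd14 at -0.55 and Lyz2 at 0.41, and sums of 157 to 444 CPM in the Sharpin-cpdm group, against 85.6 to 524 CPM in the wild-type group. The part of these cells in the values of Fgf7 and Fgf10 was not tested.

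The genes most like each of the 10 in their pattern over the 6 libraries were found by Pearson's r of log2 CPM among 10932 or 10933 genes with a mean of at least 5 CPM. With so many genes and 6 libraries that share the pair differences, many genes reach values close to 1: 538 genes had an r of at least 0.9 with Fgf7, 1254 with Fgfr1 and 25 with Spry4. Fgf7 was most like Ptpra, Hsd11b1 and C1galt1 (all 0.994), of which Hsd11b1, which makes active glucocorticoid, fell by 1.07 on the log2 scale with the block. Fgf10 was most like Fam109b (0.994), Il13ra1 (0.993) and Abcc9 (0.993). Fgf2 was most like Fam98a, Fgd6 and Arl8a (0.991 to 0.994), Fgf9 like Rapgef1, Izumo4 and Adcy2 (0.979 to 0.986), and Hgf like Cebpa, Syf2 and Lsm14b (0.978 to 0.990). Fgfr1 was most like Slc38a7, Dnase2a and Ccl11 (0.998 to 0.999), Fgfr2 like Alkbh1, Chmp3 and Apex2 (0.992 to 0.993), and Met like Erlin1, Herc6 and Birc3 (0.989 to 0.995). Spry2 was like Kdm5b (0.999) and Atf6b (0.998), and Spry4 like Adm2, B4galt3 and Gatc (0.953 to 0.984).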

How the data were processed

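The values deposited for each library are read counts, whole numbers with 1 row for each gene symbol. The submitters' processing notes list HTSeq 0.5.4p3, TopHat2 2.0.10, bcl2fastq 1.8.4 and the mm10 build; the gene annotation and the strand and overlap settings are not given in the sources used here. Per the labels' protocols, libraries were made with the TruSeq v2 kit, which does not mark strand. The 5 summary rows of each table (48.8% to 51.2% of its entries) were left out, and they include 0.831 to 0.923 entries of non-unique alignments per gene count, so genes with near-identical copies are undercounted where reads match both.

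The main test on these counts was that of edgeR 4.0.16 in R 4.3.3 (filterByExpr by group, TMM, quasi-likelihood F-test, two-sided), with DESeq2 1.42.0 and limma 3.58.1 as alternatives. The fit without the block was set as the main one, and the block was an alternative. Both edgeR fits were tested on counts simulated from the fit with the block, with its pair differences kept. The fit with the block recovered more of the changed genes, which that design favours, so the recovery does not speak for the pairing. It made 26 false calls, against 0 without the block, and the share of its calls that were false was above the threshold. Each standard error is |log2 fold change| divided by the root of F. Libraries of a group differed by far more than sampling noise (chi-square per degree of freedom of 16.9 or more). Replicates are separate pools of 3 mice. Each same-numbered pair correlated above 0.1 (values in the report; other combinations -0.691 to 0.00676), so the number was taken to pair the samples. Exon lengths are from GENCODE M21, with 20953 of 23337 genes matched by symbol and 1904 by RefSeq synonym; GC and length offsets were splines per library.

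The genes, lists and tests were chosen with earlier results of these data known. Named were the 10 genes, Sharpin, up to 4 called genes per list (or the 2 with the smallest p) and the 3 genes most like each of the 10. Genes that a second tool called, overlapping genes, Spint1, Spint2, St14, Epcam, Csn2, Wap and Lep were named after their values were seen. The values of 2 genes that this rule names are not reported here.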

Additional observations from a re-analysis of the deposited data

How the results depend on the processing

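With the replicate number as a block, the count of all called genes was 337 in place of 0, and it was 458 with offsets for GC content and length added, 336 with relative log expression scaling, 341 in DESeq2, 379 in limma-voom and 502 without the low-count filter; DESeq2 without the block called 10. Leaving out pairs gave between 44 (without pair 3) and 673 (without pair 1), with 128 without pair 2, and leaving out single libraries without the block gave 0. Of the 10 genes, 1 (Fgf7) was called with the block in edgeR, with the offsets, with relative log expression scaling and in limma-voom, 0 in DESeq2, and 2 (Fgf7 and Fgf10) without the filter; leaving out pairs gave 0 to 2. The block changed no other call among the 10. Fgf7, Fgf9 and Fgf10 kept a log2 fold change below 0 under every alternative run; Fgf9 had no value in 4 of the 9 fits that leave out libraries, because it no longer passed the filter.

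Hgf, which lies close to 0, turned to 0.0191 with the offsets, 0.0018 with relative log expression scaling and 0.0038 both in DESeq2 and without the filter (each with the block), and to 0.0046 in limma-voom without it. Leaving out libraries without the block gave ranges of -0.24 to 0.61 for Fgf2, -0.22 to 0.0885 for Fgfr1, -0.27 to 0.85 for Fgfr2, -0.0904 to 0.12 for Hgf, -0.0476 to 0.38 for Met, -0.50 to 0.0619 for Spry2, -0.0852 to 0.65 for Hs6st1 and -0.29 to 1.09 for Lyz2. Leaving out pairs with the block gave -0.0643 to 0.0689 for Hgf and -0.29 to 0.0269 for Spry4. By the longest transcript in place of all exons, mean levels were 117.5 CPM per kb for Fgfr1 (60.0 by all exons), 1.33 for Fgfr2 (0.570) and 7.90 for Hgf (3.81), since these genes have more exon sequence than 1 transcript holds. CPM without TMM scaling, added after seeing the data, also left the groups of all 10 genes overlapping. Fgf9, with 3 to 15 counts per library, is limited by depth. The causes of the other changes were not tested.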
